A study of Mus musculus with 9 samples.

Results

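The haem synthesis genes described here are Slc25a38, Alas1, Alas2, Alad, Uros, Urod, Cpox, Ppox and Fech, which encode a mitochondrial glycine carrier and 8 enzymes of the route from glycine to haem. They were chosen by name for their place in that route, not by their measured values. All 9 were among the 29410 genes tested, and each was well above the array's background on all 9 arrays, so that none entered through 1 group alone. RNA of bone marrow megakaryocytes from male mice had been hybridised to 1-colour Agilent arrays, with 3 arrays from unexposed mice (Ctrl), 3 arrays at 1 day post irradiation (1 dpi) and 3 arrays at 3 dpi, each irradiated group after 5 Gy of γ-rays to the whole body. According to the series' design, independent experiments with different donors made up each time. The labels give neither strain nor age for these mice and name no transgene; the study's methods list bought wild-type C57BL/6 animals beside its knockout lines. Mature megakaryocytes had been enriched from marrow after red-cell lysis by positive selection for CD41 and then CD42d, surface proteins of the megakaryocyte lineage, and the labels call the cells sorted. The question was how megakaryocyte gene expression responds to irradiation, and here it is asked of the haem pathway.

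Haem is an iron-containing ring used by haemoglobin, by the cytochromes of the respiratory chain and by many other enzymes. Its synthesis starts in the mitochondrion, where an aminolevulinate synthase joins glycine to succinyl-CoA, moves to the cytosol where the ring is built, and returns to the mitochondrion, where iron is inserted. Alas1 is the synthase of most tissues, whereas Alas2, on the X chromosome, is the synthase of developing red cells, which share a progenitor with megakaryocytes.

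All 15 megakaryocyte markers examined, among them Itga2b (CD41), Gp5 (CD42d), Gp9, Gp1ba and Pf4, were well above background on all 9 arrays, the probe of Pf4 being the brightest. Their summed level, in units of each array's 75th percentile, was 188, 168 and 167 in Ctrl, 184, 170 and 167 at 1 dpi and 199, 197 and 195 at 3 dpi. None of the 15 was called at 1 dpi (1 lower under array median scaling) and 1, the inhibitory receptor gene Mpig6b, was called higher at 3 dpi, at a log2 fold change of 1.18. All 10 neutrophil and all 11 macrophage markers were also well above background on all 9 arrays. Megakaryocyte RNA was thus present, as the label requires, but presence does not set how pure the cells were. Probes differ in response, so summed levels are compared here between arrays only, not between lists, and the brightest probe of a list need not be that of its most abundant RNA.

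Levels are given as log2 intensity minus the 75th percentile of the same array, so a value above 0 lies above that percentile, and changes are differences between group means on this scale. A change passed the test when limma's Benjamini-Hochberg adjusted p over all genes was under 0.05, and was called when it also reached 2-fold. Of all genes tested, 14.8% were called at 1 dpi against Ctrl, 8.83% at 3 dpi against Ctrl and 8.64% at 3 dpi against 1 dpi. Over all genes the log2 fold changes had medians of 0.23, 0.12 and -0.08 in these comparisons, so some changes are also given relative to that median. With 3 arrays a group, the number of arrays limits the precision, and an exact permutation test on a single gene could not give a two-sided p below 0.1. Ctrl replicate 1 was the only array on its slide and in its scan. The differences of that array from the other Ctrl arrays had SDs of 0.679 and 0.681 over genes, against 0.242 between those 2, and 69.1% of its spots were well above background, against 72.3% to 81.8% on the other 8 arrays. Each comparison was therefore also fitted without it, which keeps to the slide that held the other 8 arrays, and with the slide as a block. Both fits called 0, 1 and 1 of the 9 genes in the 3 comparisons, as the fit to all arrays did. The 1 dpi arrays also stood apart in brightness, with log2 75th percentiles of 8.85, 8.96 and 8.94. Those of Ctrl were 9.52, 10.12 and 10.15, and those of 3 dpi were 9.85, 10.04 and 10.02. Spots well above background made up 72.3%, 74.8% and 75.6% at 1 dpi, against 81.8%, 81.6% and 81.8% at 3 dpi. The part of this difference in the 1 dpi changes was not tested.

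At 1 dpi most of the pathway was modestly lower while its erythroid entry enzyme was higher, a rise that did not pass under array median scaling. Of the 9 genes, 6 fell (Slc25a38, Alad, Uros, Urod, Cpox and Fech), where 21.9% of all genes fell by adjusted p alone, and 1 rose (Alas2), where 33.4% of all genes rose. Alas1 and Ppox did not pass. None of the 9 was called by limma, against 14.8% of all genes. An unadjusted p under 0.05 was reached by 7 of the 9 by limma and by 7 by the methods' unpaired test. By limma this was not counted over all genes, and by the methods' test 15559 of 29410 genes reached it. With adjustment the methods' test passed 7 of the 9 and 12597 of all genes, and with the 2-fold minimum added it called 0 and 3303. The median log2 fold change of the 9 was -0.28, and -0.50 relative to the median of all genes.

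At 3 dpi 6 of the 9 genes passed as lower than Ctrl (Slc25a38, Alas2, Alad, Uros, Cpox and Ppox), where 14.8% of all genes fell by adjusted p alone, and 0 rose, where 17.1% of all genes rose. Limma gave 7 of the 9 an unadjusted p under 0.05, all of them lower, which was not counted over all genes. The methods' unpaired test gave 6, beside 10518 of 29410 genes, of which 5 passed after adjustment, beside 7083 of all genes. Ppox fell short in that test (adjusted p = 0.0525). Alas2 alone was called, 1 of 9 genes or a share not far from the 8.83% of all genes. The median of the 9 log2 fold changes was -0.42, and -0.53 relative to all genes. Both comparisons use the same Ctrl arrays, so their changes are not independent.

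Between 1 dpi and 3 dpi, Uros, Cpox and Fech rose (3 of 9, where 21.0% of all genes rose by adjusted p alone) and Alas2 and Alad fell (2 of 9, where 23.3% fell). Slc25a38, Alas1, Urod and Ppox did not pass in the limma fit to all arrays, though Urod did by the methods' test (0.23, adjusted p = 0.00827). Urod also passed by limma with normexp correction (0.30, adjusted p = 0.0186) and in a limma fit of 2 groups alone (adjusted p = 0.0143). Alas2 was again the gene called, beside 8.64% of all genes, and the median of the 9 was -0.01, or 0.07 relative to all genes, so that its sign rested on the scaling. The late fall of Alas2 was thus opposite in sign to the changes of Uros, Cpox and Fech over the same interval, as the plot of changes with their intervals shows.

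**Figure D1:**
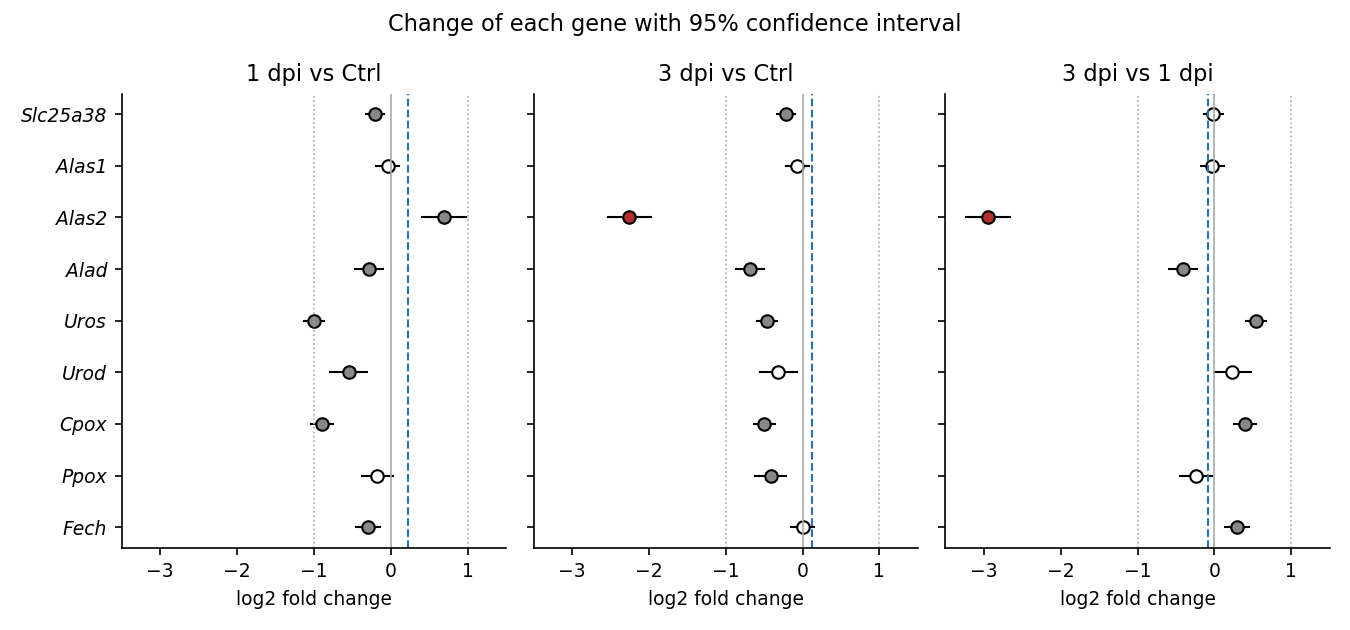
Log2 fold change of each haem synthesis gene in the 3 comparisons, in pathway order, with 95% confidence intervals from limma (3 arrays a group); red points were called, grey points passed by adjusted p alone and white points did not pass, the dashed blue line is the median of all genes and dotted lines mark a 2-fold change. Alas2 is the red point at 3 dpi against Ctrl (-2.25) and at 3 dpi against 1 dpi (-2.95), and Uros at 1 dpi (-0.997) lies at the 2-fold line without reaching it.

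Slc25a38, the carrier that brings glycine into the mitochondrion, ranged from 0.31 to 0.37 in Ctrl, from 0.12 to 0.15 at 1 dpi and from 0.10 to 0.14 at 3 dpi. Both irradiated groups lay below every Ctrl array and overlapped each other. The differences from Ctrl were small, -0.20 at 1 dpi (limma adjusted p = 0.0127) and -0.21 at 3 dpi (limma adjusted p = 0.0154). Array median scaling gave -0.53 and -0.36, the latter not passing (limma adjusted p = 0.0688), and the 3 dpi fall did not pass in a fit of 2 groups alone (limma adjusted p = 0.0618), without Ctrl replicate 2 or without 3 dpi replicate 3.

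The sequences just before the transcription starts of Alas1, Alas2 and Cpox are shown because the first pair are alternative genes for the same reaction that moved apart here, and because Alas2 and Cpox were the members with a GATA match before their first start. RefSeq promoter entries were found for 8 of the 9 genes, with 11 starts in all; Fech had none. The 250 bases before each start (build GRCm38.p6) were searched on both strands for AGATAA or AGATAG or TGATAA or TGATAG, spellings of the motif bound by GATA factors, for CACCC, a box bound by erythroid Krüppel-like factors among others, for GGGCGG and for CACGTG. Capitals mark the GATA matches, written on the gene's strand. Alas2 lies on the plus strand at chrX:150547167-150547416, Cpox on the plus strand at chr16:58669958-58670207 and Alas1 on the minus strand at chr9:106247955-106248204, each being the 250 bases that end at the first start.
Alas1: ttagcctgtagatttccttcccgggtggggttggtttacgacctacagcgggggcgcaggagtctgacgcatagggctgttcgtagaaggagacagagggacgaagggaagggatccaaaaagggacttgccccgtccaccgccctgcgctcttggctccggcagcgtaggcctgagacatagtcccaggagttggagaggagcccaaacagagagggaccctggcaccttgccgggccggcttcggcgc
Alas2: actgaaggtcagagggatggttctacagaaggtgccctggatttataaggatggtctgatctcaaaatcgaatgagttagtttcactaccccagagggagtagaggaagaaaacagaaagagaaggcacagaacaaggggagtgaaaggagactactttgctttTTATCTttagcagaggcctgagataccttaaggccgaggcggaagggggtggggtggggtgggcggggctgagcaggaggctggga
Cpox: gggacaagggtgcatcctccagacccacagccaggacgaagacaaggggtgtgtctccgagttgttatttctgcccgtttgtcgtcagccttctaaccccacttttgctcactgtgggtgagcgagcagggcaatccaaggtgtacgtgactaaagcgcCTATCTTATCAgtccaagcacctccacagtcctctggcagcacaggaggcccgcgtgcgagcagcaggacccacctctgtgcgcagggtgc
GATA spellings stood before the first start of 2 of 8 genes, where 26.5% of 32851 promoters held one, with 1 match 86 bases before the start in Alas2 and 2 matches that share 1 base, 91 and 86 bases before it, in Cpox. The second start of Uros had 2 such matches, 205 and 68 bases before it. CACCC stood in 4 of 8 genes (52% of all promoters) and GGGCGG in 5 (32.7%). Alas2 had 3 CACCC matches, 40, 35 and 30 bases before its start, and Cpox had 4, at 243, 204, 135 and 6 bases. CACGTG stood in 3 of 8 genes, namely Alad, Uros and Urod (6.02% of all promoters). A match describes letters in a window, and binding was not measured.

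Alas1, the housekeeping synthase, stood at 6.17, 6.13 and 6.08 in Ctrl, 6.13, 6.04 and 6.09 at 1 dpi and 6.14, 6.04 and 5.99 at 3 dpi. All 3 groups overlapped. Its log2 fold change was -0.04 at 1 dpi (95% confidence interval -0.19 to 0.11) and -0.07 at 3 dpi (-0.22 to 0.08), neither of which passed (limma adjusted p = 0.626 and 0.454). That outcome at 1 dpi rested on the scaling and the probe, since Alas1 was at -0.40 under quantile normalisation (limma adjusted p = 0.00074) and at -0.36 under array median scaling (limma adjusted p = 0.0495). The second brightest Alas1 probe, well above background on all 9 arrays, fell by 0.30 at 1 dpi (limma adjusted p = 0.0112) and rose by 0.25 between the times (limma adjusted p = 0.0311), whereas the third passed in neither (-0.07 and 0.03). Genes with a very similar profile over the 9 arrays included U2af1, Phf1, Ndufa6 and Apex1, at root mean square distances of 0.021 to 0.032 on the log2 scale among 24006 genes compared.

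Alas2, the erythroid synthase, stood at 0.39, 0.21 and 0.32 in Ctrl, at 1.27, 0.91 and 0.84 at 1 dpi and at -1.86, -1.92 and -2.05 at 3 dpi. The 3 groups did not overlap, all 1 dpi arrays being above and all 3 dpi arrays below every Ctrl array. Its rise at 1 dpi was 0.70 (SE 0.122, n = 3 a group, limma adjusted p = 0.00219), or 0.47 relative to all genes, and fell short of 2-fold. The fall at 3 dpi was far larger: the log2 fold change was -2.25 (95% confidence interval -2.54 to -1.97, limma adjusted p = 7.32e-06), a level 4.76-fold lower than Ctrl. Against 1 dpi the level was 7.73-fold lower, a log2 difference of -2.95 (-3.23 to -2.67, limma adjusted p = 8.84e-06). In bulk RNA such as this, fewer cells of a type and less RNA per cell cannot be told apart. The array carried a single Alas2 probe of 60 bases, at chrX:147004993-147005052 of mm9, the build of the array's coordinates; where it lies in the transcript was not determined.

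The size of the late fall held under every alternative tried, with log2 fold changes from -2.40 to -1.91 at 3 dpi against Ctrl, called under all 25 of them, and it was -2.21 both without Ctrl replicate 1 and with the slide as a block. The early rise of Alas2 was less firm. Array median scaling lowered it to 0.37, which did not pass (limma adjusted p = 0.0901), and over the 25 alternatives it ranged from 0.37 to 0.78 (adjusted p from 0.000283 to 0.0901).

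**Figure D2:**
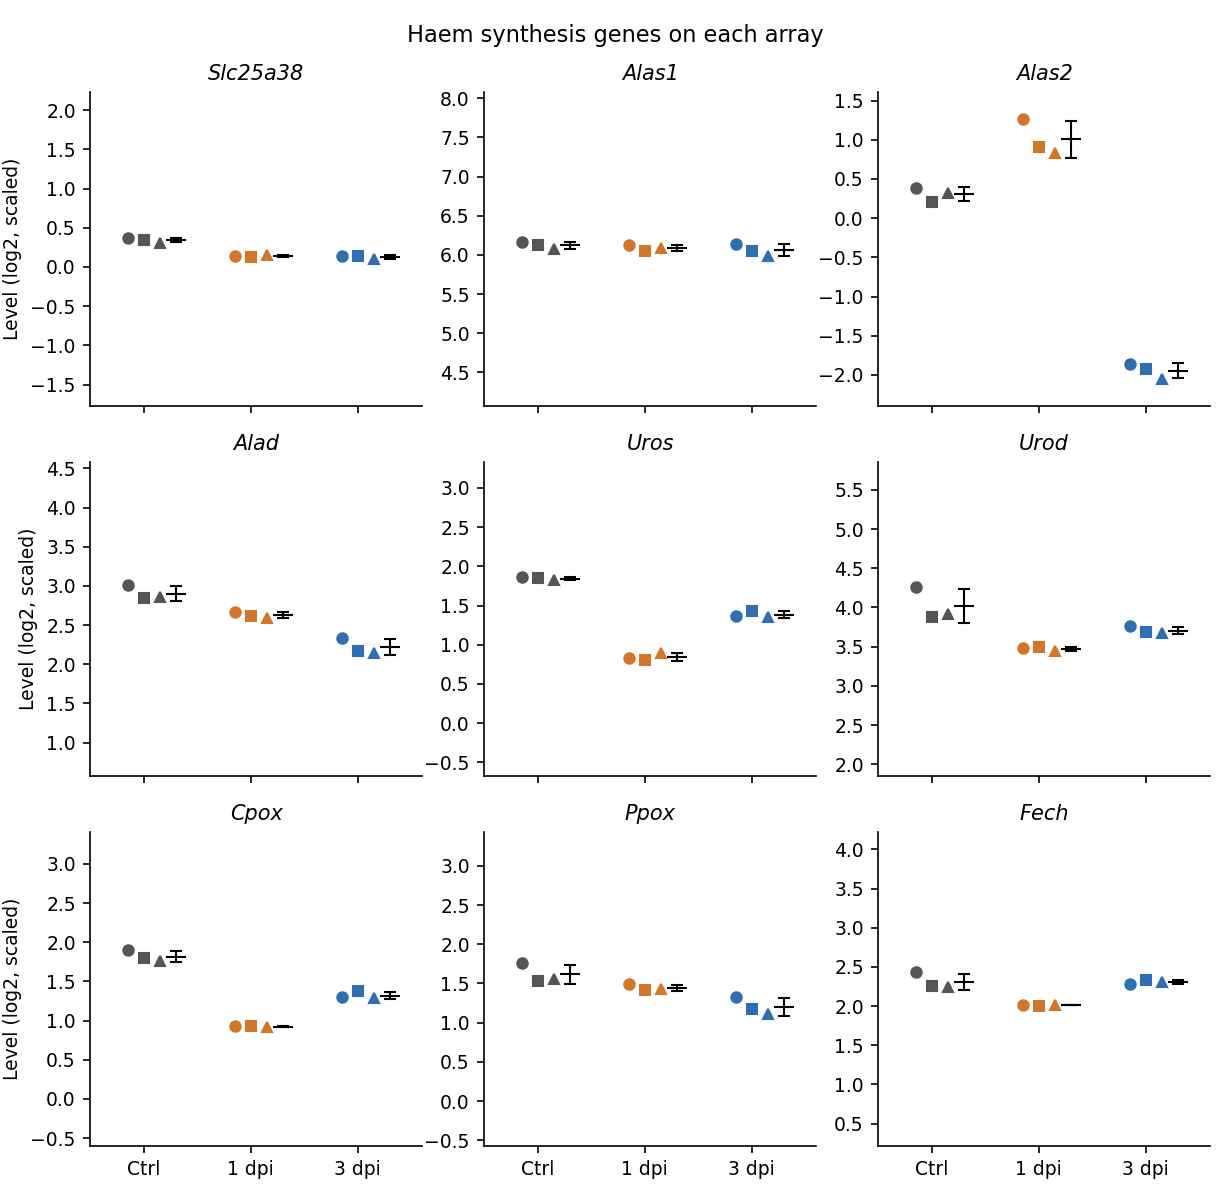
Level of each haem synthesis gene on each of the 9 arrays (log2 intensity minus the array's 75th percentile; each panel spans 4 log2 units) in Ctrl, at 1 dpi and at 3 dpi; circles, squares and triangles are replicates 1, 2 and 3, and bars show mean ± SD. Alas2 moves most, from 0.31 ± 0.09 in Ctrl to 1.00 ± 0.23 at 1 dpi and -1.95 ± 0.10 at 3 dpi, while Alas1 overlaps in all 3 groups.

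The profile of Alas2 was most like that of β-globin genes. By root mean square distance over the 9 arrays, among 24006 genes well above background on all of them, the nearest were Hbb-b2 (0.309), Hbb-b1 (0.346), Robo3 (0.375), Slc15a2 (0.417) and Hbb-bt (0.489). Hba-a1, looked at after its value was seen, came 7th, at 0.578. Globin genes are near-identical copies whose probes may cross-hybridise, so which copy gave the signal is uncertain. Hba-a1, an α-globin gene, rose by 1.32 at 1 dpi (limma adjusted p = 9.04e-05) and was at -1.47 at 3 dpi (limma adjusted p = 5.98e-05), and Hbb-b1 was at 1.06 and -1.81. Hbb-bt, another β-globin gene, did not pass at 1 dpi (0.06, limma adjusted p = 0.645) and turned to -0.23 under quantile normalisation and -0.26 under array median scaling, but was at -1.72 at 3 dpi. The early globin rise was also smaller under other scalings, at 0.70 under quantile normalisation for Hba-a1, short of 2-fold, and at 0.73 under array median scaling for Hbb-b1.

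A count made after the shape of Alas2 had been seen found 10 of 29410 genes, Alas2 included, that rose at 1 dpi by adjusted p and were called lower at 3 dpi. Of these, 4 were the globin genes Hba-a1, Hba-a2, Hbb-b1 and Hbb-b2, and Vpreb2, a surrogate light chain gene of B-cell precursors, was at 1.76 and -1.71. The rest were BC125250, 0610039K10Rik and 2 unnamed loci. Under the 4 other scalings and without Ctrl replicate 1 the count was 13, 9, 6, 7 and 16, with 4 globin genes in each, and Alas2 was among them in all but array median scaling, where the count was 9.

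Most other red-cell genes did not move like Alas2. Of 20 erythroid markers, 19 were tested, and limma called 13 lower with 2 higher at 1 dpi and 15 lower with 1 higher at 3 dpi. The 1 higher at 3 dpi became 0 under each of 4 other scalings and without Ctrl replicate 1. Between the times 9 were called higher and 3 lower. Ahsp, the chaperone of free α-globin, stood at 2.70, 2.80 and 2.78 in Ctrl, at -4.48, -4.86 and -5.28 at 1 dpi and at 0.03, 0.20 and 0.19 at 3 dpi. It was thus lowest at 1 dpi, when Alas2 was highest, with log2 fold changes of -7.64 (limma adjusted p = 2.54e-07) and -2.62. Rhd, the gene of a blood-group membrane protein, followed the same course, at -6.54 and -2.81. It was well above background on only 2 of 3 arrays at 1 dpi, so the size of its fall there is uncertain. Where 0 of the 3 arrays of a group had a gene well above background, only a bound is given, taken against the lowest signals that were above background; Kel, another blood-group gene, was at least 34.3-fold lower at 1 dpi. Ermap, a red-cell adhesion protein gene, was not called, at 0.79 and 0.17.

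The median log2 fold change of the 19 erythroid markers was -2.74 at 1 dpi, -1.81 at 3 dpi and 1.1 between the 2 times. With normexp background correction, which raises the lowest signals, 8 were called lower and 1 higher at 1 dpi, the median there was -0.49 and that between the times turned to -0.47, with 4 called higher there. With normexp and quantile normalisation the medians were -1.19 and 0.30, with 11 called lower at 1 dpi and 5 higher between the times. Their summed level was 200, 172 and 182 in Ctrl, 400, 329 and 322 at 1 dpi and 64.2, 65.2 and 61 at 3 dpi, with Hba-a1 the brightest, so the sum followed the globins. Hbb-bs was not on the array under that name. The part of red-cell RNA in the Alas2 result was not tested.

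**Figure D3:**
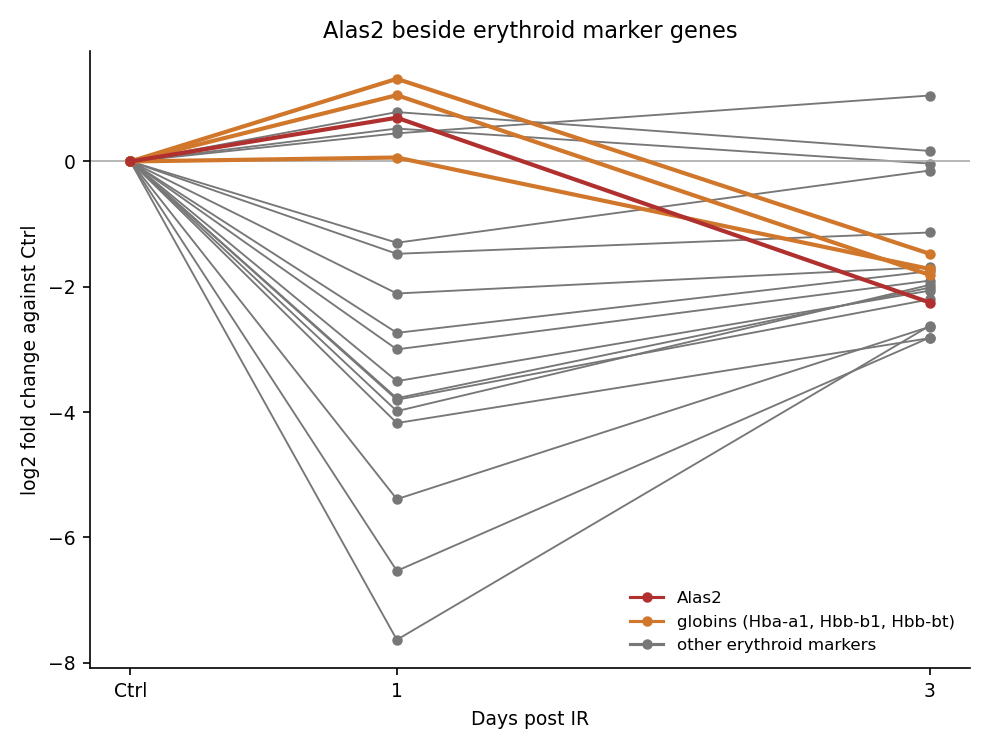
Log2 fold change against Ctrl of the erythroid markers at 1 and 3 days post irradiation (Ctrl set at 0 on the day axis), each line 1 gene; Alas2 is red, the globin genes Hba-a1, Hbb-b1 and Hbb-bt are orange and the other markers grey, some of whose 1 dpi points rest on signals not well above background. Alas2 goes from 0.70 to -2.25 beside the globins, whereas Ahsp goes from -7.64 to -2.62; with array median scaling the 1 dpi value of Hbb-bt turns to -0.26.

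Alad, which condenses aminolevulinate into the first pyrrole in the cytosol, fell stepwise with time. It stood at 3.01, 2.84 and 2.85 in Ctrl, 2.67, 2.62 and 2.6 at 1 dpi and 2.34, 2.17 and 2.15 at 3 dpi. No group overlapped another. The log2 fold change was -0.28 at 1 dpi (limma adjusted p = 0.0188; -0.60 under array median scaling) and -0.68 at 3 dpi (limma adjusted p = 0.000402), a level 1.61-fold lower than Ctrl, with a further -0.41 between the times (limma adjusted p = 0.0044) that did not pass under array median scaling (-0.23, adjusted p = 0.266). A second Alad probe, of the opposite orientation, was well above background on 0 of 9 arrays and was not tested.

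Uros, whose enzyme closes the tetrapyrrole ring, stood at 1.86, 1.85 and 1.82 in Ctrl, fell to 0.83, 0.80 and 0.90 at 1 dpi and was at 1.37, 1.43 and 1.35 at 3 dpi. The arrays of each group lay close together and no groups overlapped. Its log2 fold change of -0.997 at 1 dpi (95% confidence interval -1.13 to -0.87, limma adjusted p = 8.64e-06) missed the 2-fold minimum narrowly, and was -1.22 relative to all genes. At 3 dpi it was -0.46 (limma adjusted p = 0.000548), and it rose by 0.54 between the times (limma adjusted p = 0.000272). Whether Uros counts as called at 1 dpi therefore changes with small choices: it was called under array median scaling (-1.32), with normexp correction (-1.01), without Ctrl replicate 3 (-1.01) and without 1 dpi replicate 3 (-1.02). With the 75th percentile the dimmer Uros probes gave -0.52 at 1 dpi (limma adjusted p = 0.00301) and -0.77 (limma adjusted p = 0.0579, well above background on 8 of 9 arrays), and the dimmest was at -1.21 and called in the authors' log2 table. Neither of them passed between the times (0.17, limma adjusted p = 0.195, and 0.53, limma adjusted p = 0.183).

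Urod, which removes carboxyl groups from the ring, ranged from 3.88 to 4.27 in Ctrl, from 3.44 to 3.50 at 1 dpi and from 3.67 to 3.76 at 3 dpi. Its groups did not overlap either, with 3 dpi between the other 2. It fell at 1 dpi (-0.55, limma adjusted p = 0.00329, and -0.87 under array median scaling), whereas -0.32 at 3 dpi did not pass (limma adjusted p = 0.0532). That outcome was close to the limit: it passed under quantile normalisation (-0.40, adjusted p = 0.0113), on genes well above background on all 9 arrays (adjusted p = 0.0399) and without Ctrl replicate 1 (-0.19, adjusted p = 0.0302), among others.

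Cpox, an oxidase of the mitochondrial intermembrane space and the enzyme with which the route re-enters the mitochondrion, stood at 1.90, 1.79 and 1.76 in Ctrl, 0.92, 0.93 and 0.91 at 1 dpi and 1.30, 1.37 and 1.28 at 3 dpi. As for Uros, the 1 dpi arrays were lowest, the 3 dpi arrays lay between, and no groups overlapped. The log2 fold change was -0.89 at 1 dpi (limma adjusted p = 2.27e-05), a level 1.86-fold lower than Ctrl and -1.12 relative to all genes, and -0.50 at 3 dpi (limma adjusted p = 0.000566), with a rise of 0.40 between the times (limma adjusted p = 0.00153). A second, dimmer Cpox probe gave -1.48 at 1 dpi (limma adjusted p = 0.000212), which was called, and -0.93 at 3 dpi (limma adjusted p = 0.00334). Cpox was also called at 1 dpi under array median scaling (-1.22) and on the mean of its probes (-1.19).

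Ppox, the oxidase that makes protoporphyrin, ranged from 1.54 to 1.76 in Ctrl, from 1.41 to 1.49 at 1 dpi and from 1.1 to 1.33 at 3 dpi. Only the fall at 3 dpi passed by limma (-0.42, limma adjusted p = 0.00819), and not by the methods' test, although the groups did not overlap at either time. At 1 dpi it was at -0.18 (limma adjusted p = 0.12), and its probes disagreed there: the dimmer one rose by 0.42 (limma adjusted p = 0.00102) and was at -0.17 at 3 dpi (limma adjusted p = 0.0857). No direction is therefore given for Ppox at 1 dpi, although the brighter probe passed as lower under array median scaling (-0.50, limma adjusted p = 0.0284). Between the times it was at -0.24 and just missed (limma adjusted p = 0.057). It passed there under quantile normalisation (-0.29, limma adjusted p = 0.0129), on the dimmer probe (-0.59, limma adjusted p = 0.000312) and in several other alternatives, but not under array median scaling (-0.07).

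Fech, the ferrochelatase that inserts iron, stood at 2.43, 2.26 and 2.24 in Ctrl, 2.02, 2.01 and 2.02 at 1 dpi and 2.29, 2.33 and 2.31 at 3 dpi. The 1 dpi arrays were below all others, and the 3 dpi arrays lay within the Ctrl range. It fell by 0.30 at 1 dpi (limma adjusted p = 0.00696) and rose by 0.30 between the times (limma adjusted p = 0.00873), with a 95% confidence interval of -0.15 to 0.15 for the difference of 3 dpi from Ctrl. Array median scaling gave -0.62 at 1 dpi and 0.47 between the times. Genes with the most similar profile were Mrps2, Copz1, Haus1, Tab2 and Chchd3, at distances of 0.026 to 0.037 over the same 9 arrays.

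**Figure D4:**
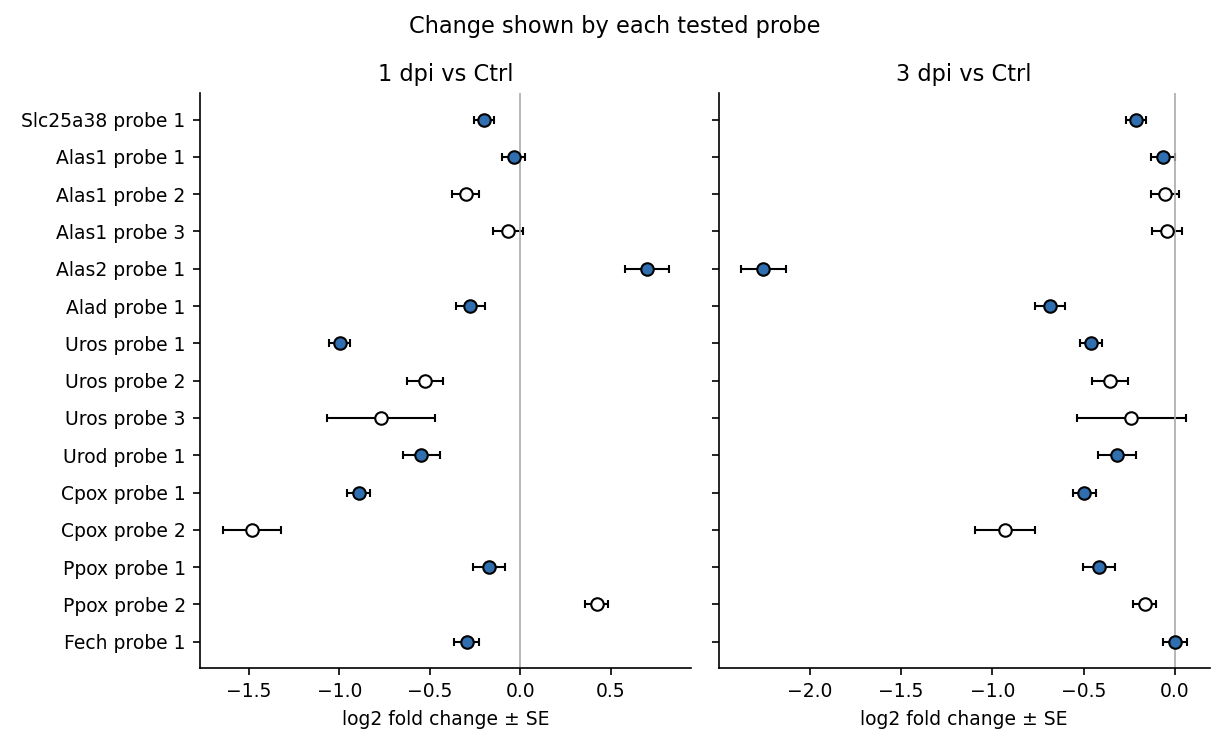
Log2 fold change ± SE of each of the 15 tested probes of the haem synthesis genes at 1 dpi and at 3 dpi, each against Ctrl. Values are from limma fitted to all probes, and blue marks the brightest probe of a gene, used for its values elsewhere. Probes of Cpox fall together at 1 dpi (-0.89 and -1.48), whereas those of Ppox have opposite signs (-0.18 and 0.42).

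Of the steps that supply the pathway, those for glycine and succinyl-CoA had 1 of 7 genes called at 1 dpi and 0 at 3 dpi, with medians of -0.25 and 0.07. The gene called was Suclg2, a subunit of succinyl-CoA synthetase, lower at 1 dpi (-1.11, limma adjusted p = 0.000404), though without Ctrl replicate 1 it was at -0.98 and short of 2-fold. Slc6a9, a glycine transporter of the cell surface, was at -0.61 and -0.22 and not called. None of 15 genes of mitochondrial iron, porphyrin transport and iron-sulphur assembly was called by limma in any comparison (medians -0.10 at 1 dpi and -0.11 at 3 dpi); Slc25a37, the erythroid mitochondrial iron importer, was at 0.12 and -0.61. The 5 genes of post-translational control of the synthases and ferrochelatase were likewise not called (medians -0.34 and 0.03), with Clpx, a mitochondrial unfoldase, at -0.73 at 1 dpi, -0.08 at 3 dpi and 0.65 between them. Array median scaling called 2 of these 5 lower at 1 dpi (median -0.66), Clpx (-1.05) among them. Both genes of haem a synthesis, Cox10 (-0.14 and 0.13) and Cox15, were not called.

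Genes of iron response and supply moved in both directions at 1 dpi. Of 8 genes, 2 were called lower there (median -0.44; 3 under array median scaling), Ireb2, an iron regulatory protein (-1.07, limma adjusted p = 6.35e-05), and Tfrc, the transferrin receptor (-1.04, limma adjusted p = 0.00044), which under quantile normalisation was at -0.99 and without Ctrl replicate 1 at -0.93, short of 2-fold. Fth1, the ferritin heavy chain and the brightest of the 8, rose without being called (0.89, limma adjusted p = 4.48e-05, and 0.23 under quantile normalisation), and the list's summed level went from 240, 216 and 216 in Ctrl to 342, 348 and 342. By 3 dpi 0 were called against Ctrl (median 0.04), and Slc40a1, the iron exporter ferroportin, was called higher than at 1 dpi (1.63, limma adjusted p = 9.18e-06), in a list whose median between the times was 0.56. Aco1, the other iron regulatory protein, was at -0.33 and 0.22 and not called.

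Of the genes of haem breakdown, only Hmox1 was called. Hmox1, the inducible haem oxygenase, stood at 4.15, 4.09 and 3.93 in Ctrl, 5.54, 5.61 and 5.78 at 1 dpi and 4.74, 5.72 and 5.65 at 3 dpi, above Ctrl on every irradiated array, and was called higher at both times (1.59, limma adjusted p = 0.00121, and 1.31, limma adjusted p = 0.00482). It was the 1 gene called of 4 at either time, with list medians of 0.36 and 0.64 (0.03 at 1 dpi under array median scaling). The constitutive Hmox2 was at 0.37 and 0.42, and the biliverdin reductase gene Blvrb fell at 1 dpi (-0.34, limma adjusted p = 0.00124) and was at 0.26 at 3 dpi. Blvra, the other such gene, rose at both times without being called (0.34, limma adjusted p = 0.00312, and 0.85, limma adjusted p = 3.93e-05). Among 4 haem exporters and importers, 0 were called at 1 dpi and Flvcr2, a transporter named for haem import, was called higher at 3 dpi (1.68, limma adjusted p = 0.000728). It was well above background on 2, 1 and 3 arrays of Ctrl, 1 dpi and 3 dpi, and with normexp correction it was at 0.46 and not called. Flvcr1, a haem exporter, was at -0.79 and 0.00, and called lower at 1 dpi under array median scaling (-1.11). Of 6 haem-responsive regulators 5 were tested, Ppargc1a being too dim, and 0 were called, with Bach1, a repressor that haem inactivates, at -0.43 and 0.12. Without Ctrl replicate 1 all 6 were tested and 1 was called lower at 1 dpi (list median -0.31, against -0.18 with all arrays). Array median scaling called 1 higher at 3 dpi than at 1 dpi.

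The transcription factors of the erythroid and megakaryocyte lineages were the pathway list with the lowest medians, -0.67 at 1 dpi and -0.67 at 3 dpi. Of 10 genes, 3 were called lower at 1 dpi and 4 at 3 dpi, with 0 higher; array median scaling called 5 lower at 1 dpi. Klf1, an erythroid factor that binds CACCC boxes, was at -2.11 (limma adjusted p = 9.54e-06) and -1.69 (limma adjusted p = 3.05e-05), and Zfpm1, the partner of GATA1, was at -1.35 and -1.65. Gata1 itself fell at both times without being called, by adjusted p alone (-0.69 and -0.79, limma adjusted p = 0.000929 and 0.000728). At 3 dpi Tal1 (-1.07) and Gfi1b (-1.18) were also called, and at 1 dpi Runx1 (-1.02), which was short of 2-fold under quantile normalisation (-0.99) and without Ctrl replicate 1 (-0.91).

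**Figure D5:**
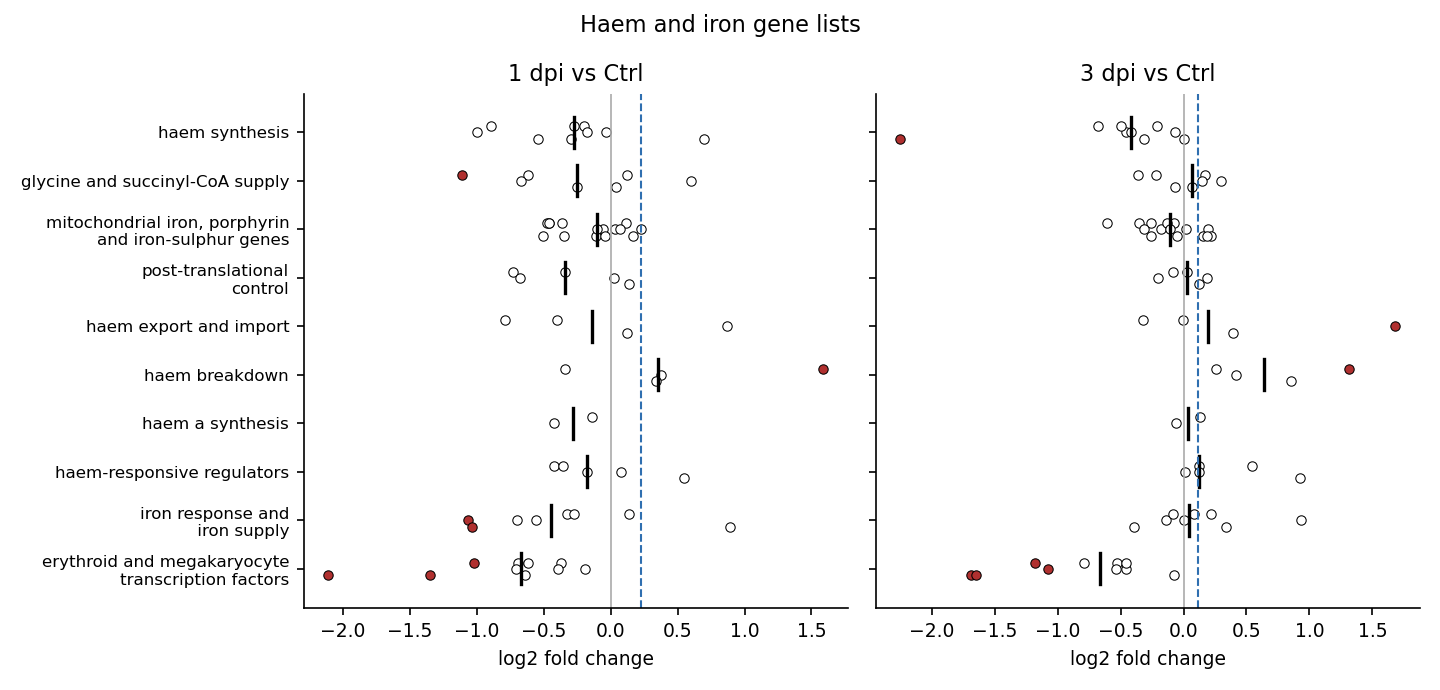
Log2 fold change of each gene of the 10 pathway lists at 1 dpi and at 3 dpi, each against Ctrl. Red points were called, black bars are list medians and the dashed line is the median of all genes (0.23 and 0.12). The transcription factor list has medians of -0.67 and -0.67 against Ctrl, and at 3 dpi the lowest point among the haem synthesis genes is Alas2 at -2.25.

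RNA of other marrow cells moved in the same comparisons. B-cell markers were called lower in 8 of 9 genes at 1 dpi and 8 of 9 at 3 dpi, their summed level going from 39.1, 36.3 and 37.5 in Ctrl to 8.04, 7.76 and 7.99 and then to 7.93, 7.7 and 7.71, with Cd79b the brightest. Macrophage markers were called higher in 4 and lower in 1 of 11 genes at 1 dpi and higher in 8 at 3 dpi, with sums of 87.2, 77.5 and 74.9, then 112, 106 and 112, then 205, 201 and 197, led by Csf1r. Macrophages also take up and recycle red-cell iron, and Hmox1 and Slc40a1 are among the genes they express. Neutrophil markers had 1 of 10 called higher at 1 dpi, S100a8 (1.12, but 0.42 and not called under quantile normalisation), and 0 at 3 dpi, with sums of 1500, 1570 and 1560, then 2600, 2440 and 2410, then 1670, 1490 and 1580, led by Mpo. Stromal markers were called higher in 4 of 7 and then 3 of 7 genes, with sums of 14.3, 13.6 and 14.4, then 69.6, 60.6 and 65.8, then 126, 115 and 124, led by Cxcl12. Endothelial markers were called higher in 2 of 6 and then 4 of 6, although Tek fell at 1 dpi (-0.93, limma adjusted p = 0.000367) and was called lower under quantile normalisation (-1.20) and array median scaling (-1.25), with sums of 3.57, 3.15 and 3.26, then 5.67, 5.26 and 5.4, then 12, 10 and 10.4, led by Stab2. Under the other scalings B-cell counts went down to 6 at 1 dpi and 7 at 3 dpi, and macrophage counts to 7 at 3 dpi, while stromal counts went up to 5 and 4. At 1 dpi array median scaling called 1 endothelial marker higher and 1 lower. The part of these cells in the haem pathway results was not tested.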

How the data were processed

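The deposited files are Agilent Feature Extraction 10.7.1.1 output with the processed intensity of 62976 spots per array, per the file headers a 1-colour scan; the study's methods describe an Affymetrix chip, whereas the labels name Cy3 labelling with an Agilent kit. A log2 table deposited by the authors, whose making is not given in the sources used here, matched quantile-normalised values of 1 probe per gene and served as an alternative. After removal of 3671 control spots, spots of a probe were averaged, giving 56605 probes, of which 20 with outlier flags were dropped. The filter kept a probe if every array of some group had it well above background, log2 intensity minus each array's 75th percentile was taken, and the brightest probe stood for a gene. Of these probes, 32994 were named through RefSeq accessions and 23611 kept the name in the file; 16 probes named the 9 genes. Limma 3.58.1 in R 4.3.3 (with data.table version 1.17.8) fitted 1 mean per group over all 9 arrays, and the procedure was tested on simulated data, where it missed the first limit set for recovered changes, for want of power in genes with a large spread; the limit was then changed. Summed levels are on the linear scale. Figures and promoter searches used Python 3.11.15 and matplotlib 3.10.9. Alternatives were other scalings, normexp background correction (offset 50), other probes, probe filters, the methods' unpaired test, blocks, and each array left out in turn. Named genes were the 9, and from each other pathway list and the erythroid markers the 2 called genes with the largest change at 1 dpi and the first gene not called, with genes among the 5 nearest in profile to Alas2, Alas1 and Fech; others named were chosen after their values were seen. Members and lists were chosen with earlier results of these data known. Some items are not reported here.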

Additional observations from a re-analysis of the deposited data

Results flagged for a closer look

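For 5 haem synthesis genes the change after irradiation differed between the 2 times, by the comparison of 3 dpi with 1 dpi fitted in limma over all genes (adjusted p = 8.84e-06 for Alas2, 0.0044 for Alad, 0.000272 for Uros, 0.00153 for Cpox and 0.00873 for Fech). Level at 3 dpi minus level at 1 dpi was -2.95 for Alas2 and -0.41 for Alad, which were lower at the later time, and 0.54 for Uros, 0.40 for Cpox and 0.30 for Fech, which were higher. Every 3 dpi array lay on that side of every 1 dpi array for all 5, which had been picked by the same comparison. The 3 dpi and 1 dpi arrays also did not overlap for Urod and Ppox, which did not pass. The share of all genes without overlap was not computed. The dimmer Uros probes did not pass in that comparison. Groups of 3 arrays are too small for a test of single outlying arrays.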

How the results depend on the processing

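Across 27 alternatives, 644 gene values kept their direction and stayed called or not called, 28 kept their direction and became called, and 21 changed sign. Some of the 644 still crossed the limit on adjusted p alone, such as Alas2 at 1 dpi under array median scaling. For the cases below the cause was not tested unless stated. Alas2 was called at 3 dpi, against Ctrl and against 1 dpi, in each of its 25 alternatives. The number of haem synthesis genes called at 1 dpi went from 0 to 2 with array median scaling, 1 with normexp correction, 1 with the mean of a gene's probes, 2 in the authors' log2 table, 2 relative to the median of all genes, and 0 to 1 with single arrays left out. At 3 dpi it went from 1 to 2 in the authors' table, where Cpox was at -1.10. That table (21694 genes) holds the dimmer probe for Alad, Uros, Cpox and Ppox. With no minimum fold, by construction, 7, 6 and 5 of the 9 and 16275, 9391 and 13016 of all genes were called in the 3 comparisons, against 4361, 2596 and 2542. Normexp correction with the 75th percentile called 2443, 1294 and 1351 of all genes, and with quantile normalisation 1667, 1147 and 1088.

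None of the changed signs was called, but 5 passed by adjusted p: Ppox on its dimmer probe, and Alas1 with quantile normalisation, with normexp and quantile, in the authors' table and on its second brightest probe. For 3 dpi against 1 dpi, Alas1 was at 0.26 with quantile normalisation, 0.15 with array median scaling, 0.052 with normexp correction, 0.26 with normexp and quantile, 0.081 on the mean of its probes, 0.27 in the authors' table, 0.055 relative to all genes, between -0.071 and 0.0051 with single arrays left out, and 0.25 and 0.025 on its dimmer probes. In that comparison Slc25a38 was at 0.16 with array median scaling, 0.0065 with normexp correction, 0.072 relative to all genes and between -0.023 and 0.001 with single arrays left out, and Alad was at 0.10 in the authors' table, on the probe not well above background. Ppox at 1 dpi was at 0.12 on the mean of its probes, 0.22 in the authors' table and 0.42 on its dimmer probe. Fech at 3 dpi was at 0.061 with the slide as a block and between -0.036 and 0.061 with single arrays left out.

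The split of called genes into higher and lower at 1 dpi was 3455 and 906, but 1943 and 1510 with quantile normalisation, 1887 and 2303 with array median scaling, and 1146 and 521 with normexp and quantile. Between the times it was 1224 and 1318, and 1619 and 954, 1778 and 828, and with normexp correction 448 and 903. Same-numbered arrays of different groups shared only a number, their deviations correlating between -0.107 and 0.128. With a replicate block, 0, 1 and 1 of the 9 genes and 4186, 2505 and 2455 of all genes were called, and no call among the 9 changed. Scans matched slides, so the scan was not fitted on its own. Dim probes limit what could be read, above all at 1 dpi, where several erythroid genes were not well above background.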
